A study of Arabidopsis thaliana with 4 samples.

Results

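The 10 genes described here encode cytosolic HSP70, HSP90 and HSP101 chaperones of Arabidopsis thaliana and were chosen by locus from the 31346 genes of the deposited table. They do not cover every HSP70 gene outside the organelles, and comprise 5 HSP70 genes (HSC70-1, HSC70-2, HSC70-3, HSP70-4 and HSP70-5), 4 HSP90 genes (HSP90.1 to HSP90.4) and HSP101. By textbook role, HSC70-1, HSC70-2, HSC70-3, HSP90.2, HSP90.3 and HSP90.4 were placed in a constitutive class of 6 genes, and HSP70-4, HSP70-5, HSP90.1 and HSP101 in a heat-induced class of 4. All 10 had counts in all 4 libraries and were among the 18940 genes tested.

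Poly(A) RNA of whole seedlings, 6 d old, was sequenced from wild type (WT, labelled "Wide type", 2 libraries) and from plants overexpressing ClpD in the WT background (ClpD-OE, 2 libraries). The series describes the overexpression as constitutive, and the sources used here do not give its promoter. Both ClpD-OE libraries carry the title of line #5, so effects of the transgene and other traits of that line cannot be told apart. The series title frames the comparison around excess precursors of chloroplast proteins and a response resembling heat shock, but no heat treatment is given in the labels. No label states that the libraries of a group came from separate cultures, so the p-values speak only to the spread among these samples, and that spread may be technical.

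HSP70 proteins bind exposed hydrophobic stretches of unfolded proteins in cycles of ATP hydrolysis, and cytosolic members also hold precursors on their way to chloroplasts and mitochondria. HSP90 acts later, on partly folded clients such as kinases and receptors, while HSP101 is a ring-shaped ATPase that pulls polypeptides out of aggregates and is needed in Arabidopsis for acquired tolerance to heat. In unstressed cells HSP70 and HSP90 are held to restrain the heat shock factors, which on heating bind heat shock elements, alternating GAA and TTC units in front of chaperone genes.

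The heat shock elements upstream of the chaperone genes are shown because the constitutive and heat-induced classes both carry them. They were searched for in the 500 bases before the annotated start codon, in RefSeq assembly TAIR10.1, as GAANNTTC or TTCNNGAA, where N is any base (2 units), and as GAANNTTC followed by NNGAA or TTCNNGAA followed by NNTTC (3 units). These letters cover both strands, and each match of 3 units also holds the motifs of 2 units. Capitals mark the GAA and TTC units, and each sequence is written on the strand of its gene. The bases at either end, outside the units, are flanks. Coordinates below cover all printed bases, flanks included, while distances to the start codon count from the first capital.
HSC70-1: caaccatcGAAcaTTCtcGAAacatttta
HSC70-2: taattacaGAAcaTTCtgGAAactcaagt
HSC70-3, far site: atcgaaccGAAcaTTCtcGAAccttttta
HSC70-3, near site: gagccatcGAAccTTCtcGAAactcgagt
HSP70-4: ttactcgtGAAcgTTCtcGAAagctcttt
HSP90.1: aacgaaaaGAActTTCtgGAAttcgtttg
HSP90.1, element of 2 units: gaaccggcGAAatTTCtttgccag
HSP70-5, element of 2 units: gaccttttTTCtcGAAatgtctcg
HSP101, element of 2 units: aaataagcGAAaaTTCcacgtgac

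The sites of HSC70-1 (chr5:556554-556582, minus strand) and HSC70-2 (chr5:552686-552714, minus strand) began 240 and 141 bases before the start codon. Those of HSC70-3 (chr3:2905894-2905922 and chr3:2905765-2905793, minus strand) began 282 and 153 bases before it. The HSP70-4 site (chr3:3993846-3993874, minus strand) began 177 bases before the start codon. Within the HSP70 family the element of 3 units was thus found in the 3 constitutive genes and in HSP70-4. HSP90.1 had its element of 3 units 295 bases upstream (chr5:21352254-21352282, plus strand) and one of 2 units 352 bases upstream (chr5:21352197-21352220, plus strand). The elements of 2 units of HSP70-5 (chr1:5504461-5504484, minus strand) and HSP101 (chr1:27940325-27940348, minus strand) began 150 and 478 bases before the start codon. In the 500 bases of HSP90.2, HSP90.3 and HSP90.4 none of these letters was found.

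Elements of 3 units stood before 5 of the 10 genes, against 326 of 27443 protein-coding genes on the nuclear chromosomes (1.19%). By class, they stood before 3 of the 6 constitutive and 2 of the 4 heat-induced genes. At least 2 units stood before 7 of the 10 genes, against 33.8% of all those genes. Related lists held them too, with 3 units before 37.5% of cytosolic small heat shock protein genes and 23.8% of heat shock factors. The shares were 16.7% of other HSP70, HSP90 and HSP100 genes and 8.0% of co-chaperones and cofactors. For at least 2 units these lists stood at 100%, 61.9%, 61.1% and 64.0%, in the same order. Apart from those of HSP90.1, whose annotated gene starts at its start codon, the printed sites lie inside the annotated bounds of the gene. Whether they lie in exons was not determined. In the 250 bases before the annotated start of the gene, 0 of the 10 genes held either motif, against 16.1% of all genes for 2 units and 0.386% for 3 units. A match is a description of letters, and binding was not measured.

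**Figure D1:**
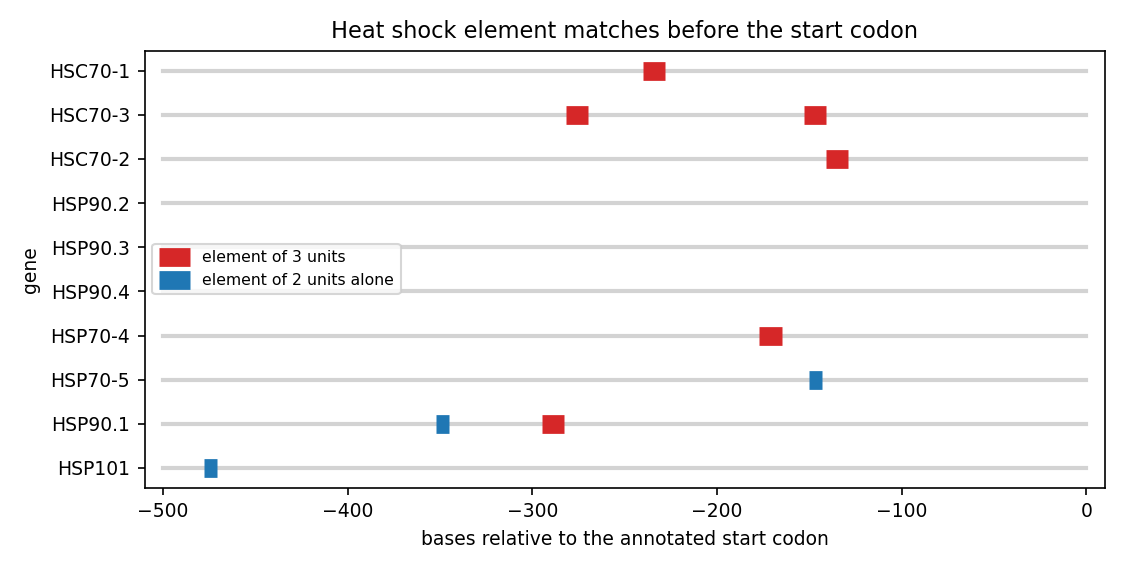
Heat shock element matches in the 500 bases before the annotated start codon of the 10 genes; the x axis gives bases relative to the start codon, red boxes are elements of 3 units and blue boxes elements of 2 units alone. Red boxes stand before 5 genes, and HSP90.2, HSP90.3 and HSP90.4 have no box.

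Several of the genes are close neighbours and close in sequence, which bears on how their reads could be counted. HSC70-1 (chr5:553745-556623) and HSC70-2 (chr5:550035-552827) lie 917 bases apart, and HSP90.4, HSP90.3 and HSP90.2 form a row on chromosome 5 with 1085 and 2220 bases between them. The coding sequences of HSP90.2 and HSP90.3 were 95.7% identical over 2100 aligned bases, with an identical run of 238 bases, and HSP90.4 was 94.3% and 95.4% identical to them. Reads could therefore be split among these 3 genes, and their separate values are uncertain. HSP90.1 was 78.9% to 79.6% identical to the other HSP90 genes. The coding sequences of HSC70-1, HSC70-2 and HSC70-3 shared 84.1% to 87.2% of their bases, HSP70-4 shared 79.3% to 79.7% with them, and HSP70-5 shared 73.9% to 76.6% with the other HSP70 genes.

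Total counts per library ran from 20800842 to 23294451, and the 10 genes took 0.240% and 0.168% of them in WT, against 0.291% and 0.247% in ClpD-OE. CLPD, the overexpressed gene, had 2849 and 3037 counts in WT, against 41739 and 46316 in ClpD-OE, as the labels say (log2 fold change 3.57, edgeR adjusted p = 0.00283). Transcripts of green tissue (RBCS1A, at least 480111 counts) and of root (PYK10, at least 23030 counts) were present in each library. Both green tissue markers were called lower in ClpD-OE, LHCB1.3 with a log2 fold change of -0.64 (edgeR adjusted p = 0.0193) and RBCS1A with -0.39 (edgeR adjusted p = 0.0378). Of the root markers, PYK10 stood at -0.012 and ADF8 had 8 to 13 counts, while CASP1 had 11 and 15 counts in WT, against 26 and 48 in ClpD-OE (edgeR adjusted p = 0.165). The flower marker SEP3 had 167 and 228 in WT, against 338 and 398 in ClpD-OE (edgeR adjusted p = 0.103), AP3 had 0 to 2, and the seed storage genes CRU3 and SESA3 had 0. The part of these marker differences in the values below was not tested. Levels per transcript length are given below as the authors' FPKM, a fragment count scaled to transcript length and library total, and levels between libraries as normalized CPM, counts scaled to a common library size by TMM, edgeR's trimmed mean of M values. With library totals in place of TMM the median log2 fold change of all genes moved from 0.0011 to 0.23, so changes are reported relative to the TMM scale.

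Of the 10 genes, 0 were called different between ClpD-OE and WT (edgeR quasi-likelihood test, adjusted p under 0.05), where 4.29% of all tested genes were called higher and 3.91% lower. DESeq2 called 0 as well, and 1 gene, HSP90.4, had an unadjusted edgeR p under 0.05, as 28.2% of all tested genes did. Both ClpD-OE libraries lay above both WT libraries in 2 of the 10 genes (30.5% of all tested genes) and below both in 0 (29.4%). The median log2 fold change was 0.044 over the 10 genes, 0.21 over the constitutive class and -0.12 over the heat-induced class, beside 0.0011 over all genes. The median over the 10 genes was 0.52 without WT replicate 1, -0.21 without WT replicate 2, -0.0083 and 0.22 without ClpD-OE replicate 1 and 2, 0.14 with the replicate number as a block, and 0.28 with library totals. The difference was above 0 in 6 of the 6 constitutive and 1 of the 4 heat-induced genes, values of which none passed the test. That count turned on single libraries: 9 of the 10 values were above 0 without WT replicate 1 and 4 without WT replicate 2, and 5 and 8 without ClpD-OE replicate 1 and 2. In whole seedlings, fewer cells that use a gene and less RNA per cell cannot be told apart.

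HSC70-1 (AT5G02500), the main cytosolic HSP70 gene, was the most abundant of the 10 by transcript length. It stood at 510 and 431 FPKM in WT, against 705 and 617 in ClpD-OE, which made up 71.0% to 81.9% of the summed FPKM of the HSP70 genes in a library. In normalized CPM it had 1441 and 1171 in WT, against 1681 and 1453 in ClpD-OE. Both ClpD-OE libraries were above both WT libraries, the nearer pair by a small margin. The log2 fold change was 0.26 (SE 0.133), and it did not pass the test (edgeR adjusted p = 0.267). With 1 library left out it ran from 0.12 (without WT replicate 2) to 0.42 (without WT replicate 1). With library totals in place of TMM it was 0.49 and was called (edgeR adjusted p = 0.0428), on a scale where the median gene stood at 0.23.

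HSC70-3 (AT3G09440), a further constitutive HSP70 gene, was second in abundance in that family, with 134 and 72.6 FPKM in WT, against 133 and 113 in ClpD-OE. Its normalized CPM was 325 and 170 in WT, against 274 and 230 in ClpD-OE. The WT libraries lay on either side of the ClpD-OE pair, and the log2 fold change was 0.024 (SE 0.305, edgeR adjusted p = 0.971). It was 0.56 without WT replicate 1 and -0.37 without WT replicate 2. HSC70-3 overlaps AT3G09430 on the opposite strand over 863 bases, a gene with 23 to 49 counts per library. The sources used here do not say whether counting used strand, so reads of the pair cannot be told apart.

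HSC70-2 (AT5G02490), the neighbour of HSC70-1, was far lower, at 13.8 and 7.74 FPKM in WT, against 19.98 and 13.5 in ClpD-OE. It gave 1.47% to 2.198% of the HSP70 transcripts by FPKM. Its normalized CPM of 37.9 and 20.4 in WT, against 46.3 and 30.8 in ClpD-OE overlapped between groups, with replicate 1 the higher library in each. The log2 fold change of 0.41 (SE 0.337) did not pass the test (edgeR adjusted p = 0.486). It was 0.026 without WT replicate 2 and 0.082 without ClpD-OE replicate 1, and 0.91 without WT replicate 1 and 0.67 without ClpD-OE replicate 2. With the replicate number as a block it was 0.44 and was called (edgeR adjusted p = 0.0426), although no label states that the numbers pair the libraries.

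HSP70-4 (AT3G12580), the strongly heat-induced HSP70 gene, had 3121 and 729 counts in WT, against 2875 and 1343 in ClpD-OE. This gave 166 and 35.3 normalized CPM in WT, against 115 and 54.2 in ClpD-OE. The WT libraries held both the highest and the lowest value, 4.69-fold apart, and the ClpD-OE libraries were 2.12-fold apart. The log2 fold change was -0.25 with an SE of 0.736 (edgeR adjusted p = 0.861). It was 1.26 without WT replicate 1 and -0.97 without WT replicate 2, and it was not called either way. HSP70-4 made up 8.27% and 2.51% of the HSP70 transcripts by FPKM in WT, against 5.38% and 3.04% in ClpD-OE.

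HSP70-5 (AT1G16030), which is also induced by heat, was the lowest of the 10 genes, at 1.605 and 1.703 FPKM in WT, against 1.833 and 2.03 in ClpD-OE. Its normalized CPM was 4.56 and 4.65 in WT, against 4.40 and 4.81 in ClpD-OE. Unlike HSP70-4, it was nearly level across the libraries, and the groups overlapped. The log2 fold change of -0.0016 (SE 0.166, edgeR adjusted p = 0.996) took the other sign, 0.22, with library totals in place of TMM.

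HSP90.2 (AT5G56030) and HSP90.3 (AT5G56010), constitutive genes, supplied most HSP90 transcripts, with 46.7% to 48.8% and 38.7% to 42.9% of the family's summed FPKM. HSP90.2 had 312 and 177 normalized CPM in WT, against 277 and 234 in ClpD-OE. HSP90.3 had 243 and 156 in WT, against 238 and 206 in ClpD-OE. In both genes WT replicate 1 was the highest library and WT replicate 2 the lowest, with the ClpD-OE pair between them. The log2 fold changes were 0.064 (SE 0.270) and 0.15 (SE 0.218), with edgeR adjusted p-values of 0.903 and 0.690. They were 0.53 and 0.50 without WT replicate 1, and -0.29 and -0.13 without WT replicate 2.

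HSP90.4 (AT5G56000), the third of the near-identical constitutive genes, was much lower, at 6.93 and 7.26 FPKM in WT, against 9.71 and 10.8 in ClpD-OE. Its normalized CPM was 18.8 and 18.9 in WT, against 22.2 and 24.4 in ClpD-OE. The groups did not overlap, and the libraries of each group lay close together. The difference of 1.24-fold (log2 fold change 0.31, SE 0.107) did not pass the test (unadjusted p = 0.0326, edgeR adjusted p = 0.141). With library totals it was 0.53 and was called (edgeR adjusted p = 0.0380).

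HSP90.1 (AT5G52640), the heat-induced HSP90 gene, had 46.6 and 13.6 normalized CPM in WT, against 39.6 and 21.3 in ClpD-OE. Replicate 1 was higher than replicate 2 in both groups, 3.44-fold in WT and 1.86-fold in ClpD-OE. The WT libraries again enclosed the ClpD-OE libraries, and the log2 fold change was 0.022 (SE 0.600, edgeR adjusted p = 0.986). It was 1.17 without WT replicate 1 and -0.61 without WT replicate 2, and was called in neither. HSP90.1 gave 4.62% to 9.25% of the HSP90 transcripts by FPKM.

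Counts of HSP101 (AT1G74310), which encodes the disaggregase, were 1038 and 205 in WT, against 321 and 218 in ClpD-OE. Its normalized CPM was 55.1 and 9.93 in WT, against 12.8 and 8.80 in ClpD-OE, or 15.2, 2.87, 4.19 and 2.92 FPKM in the same order. One library, WT replicate 1, stood above the other 3, and WT replicate 2 lay between the ClpD-OE libraries in normalized CPM. HSP101 had the lowest log2 fold change of the 10, -1.58 (SE 0.767), and it did not pass the test (edgeR adjusted p = 0.250). With WT replicate 1 left out it stood at 0.12, and with WT replicate 2 left out at -2.35, where it was called lower (edgeR adjusted p = 0.00984), each resting on 1 WT library. HSP101 overlaps AT1G74300 on the opposite strand over 101 bases, a gene with 70 to 102 counts per library, whose reads cannot be told apart from it without strand.

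**Figure D2:**
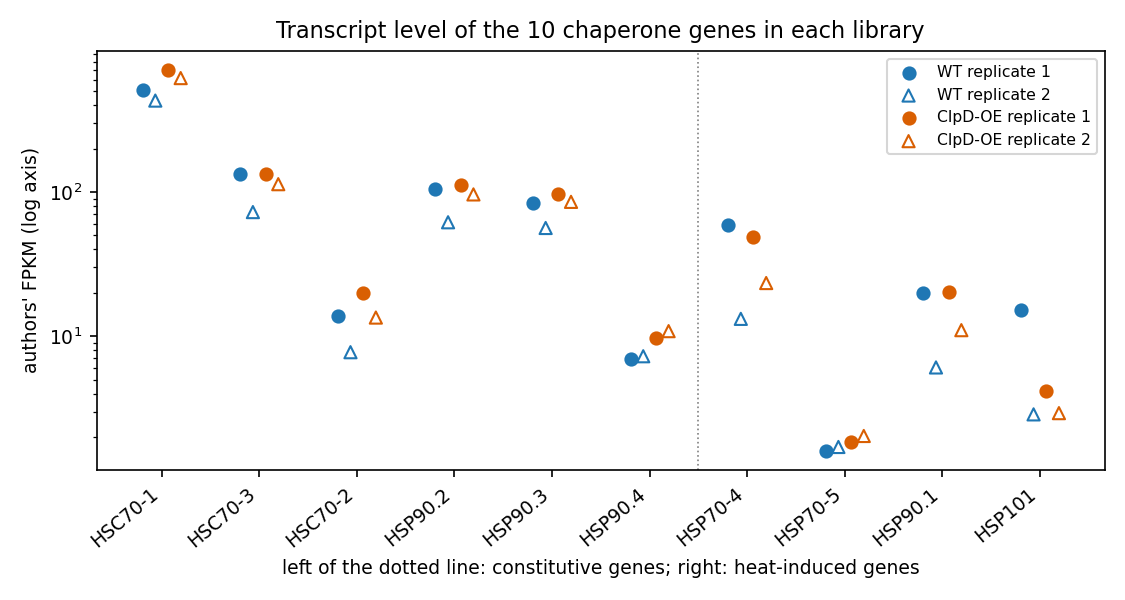
Transcript level of each of the 10 genes in each library, as the authors' FPKM on a log axis; blue is WT, orange ClpD-OE, circles replicate 1 and open triangles replicate 2, with constitutive genes left of the dotted line. HSC70-1 lies at 431 to 705 FPKM and HSP70-5 at 1.605 to 2.03, and for HSP101 WT replicate 1 stands alone at 15.2 FPKM.

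Ordered by mean FPKM in WT, HSC70-1 led with 471 ± 56.1, followed by HSC70-3 (103 ± 43.2), HSP90.2 (83.7 ± 31.2), HSP90.3 (70.1 ± 19.6) and HSP70-4 (36.3 ± 32.7) (SD, n = 2 each). HSP90.1 (13.1 ± 9.89), HSC70-2 (10.8 ± 4.27), HSP101 (9.02 ± 8.70), HSP90.4 (7.09 ± 0.231) and HSP70-5 (1.654 ± 0.0693) came after. HSC70-1 at the top and HSP70-5 at the bottom stood clear of their neighbours in WT, and the ranges of the other neighbours in the order overlapped. In ClpD-OE the order differed in that HSC70-2 (16.7 ± 4.61) stood above HSP90.1 (15.6 ± 6.49) and HSP90.4 (10.3 ± 0.797) above HSP101 (3.56 ± 0.892). Of these, the ranges of HSC70-2 and HSP90.1 overlapped and those of HSP90.4 and HSP101 did not.

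**Figure D3:**
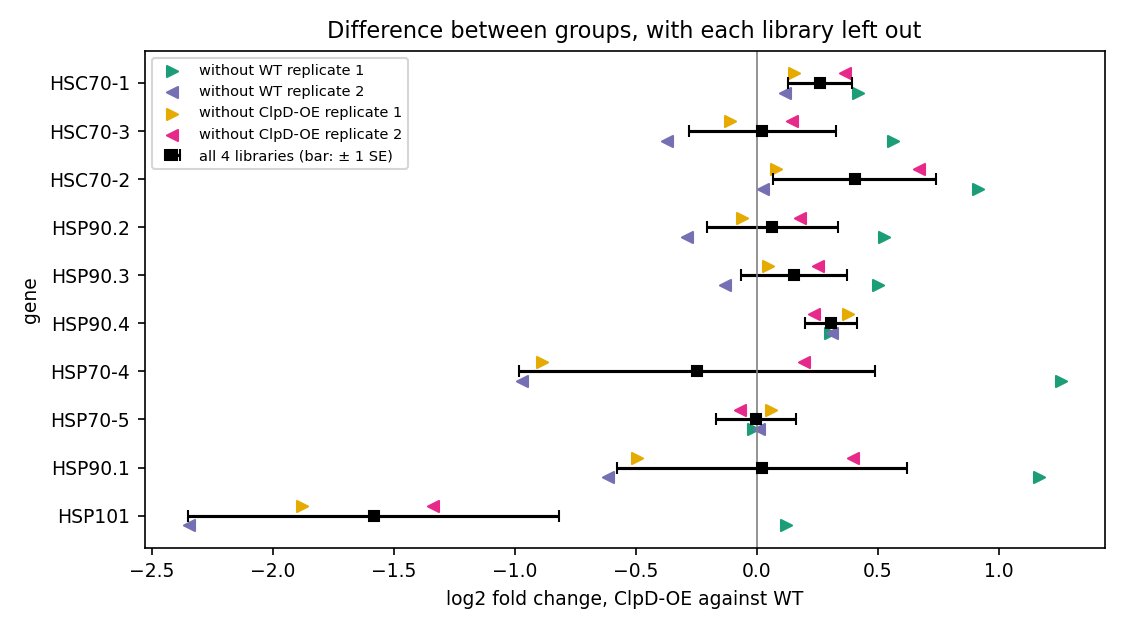
Log2 fold change of each gene, ClpD-OE against WT; black squares are the edgeR values from all 4 libraries with bars of 1 SE, and coloured triangles the values with 1 library left out. For HSP101 the value moves from -1.58 to 0.12 without WT replicate 1 and to -2.35 without WT replicate 2, while the values of HSP90.4 lie between 0.24 and 0.38.

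The larger differences among these genes lay between the libraries of 1 group. From WT replicate 1 to replicate 2 the log2 difference in normalized CPM was -1.78 for HSP90.1, -2.23 for HSP70-4 and -2.47 for HSP101. Of the 18879 genes with counts in all 4 libraries, 49 (0.260%) differed as far in that direction as HSP101, 70 (0.371%) as HSP70-4 and 130 (0.689%) as HSP90.1. The constitutive genes HSC70-3 (-0.93), HSC70-2 (-0.89), HSP90.2 (-0.81), HSP90.3 (-0.63) and HSC70-1 (-0.30) were lower in WT replicate 2 by less, and HSP90.4 (0.0092) and HSP70-5 (0.028) were level. The median over the 10 genes was -0.85, over the heat-induced class -2.005 and over the constitutive class -0.72, against -0.0021 over all genes.

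The ClpD-OE libraries differed the same way by less. Their median log2 difference, replicate 2 minus replicate 1, was -0.25 over the 10 genes, -0.72 over the heat-induced and -0.23 over the constitutive class, against 0.0010 over all genes. The values were -1.08 for HSP70-4, -0.89 for HSP90.1 and -0.54 for HSP101. Replicate 1 was above replicate 2 in both groups in 8 of the 10 genes and in 28.8% of all genes, the exceptions being HSP90.4 and HSP70-5. It was not particular to the 10 genes, as it held in 7 of 8 cytosolic small heat shock protein genes and 15 of 24 co-chaperones and cofactors. Among heat shock factors it held in 7 of 19, and among other HSP70, HSP90 and HSP100 genes in 8 of 16. The numbers are not stated to mark a shared day or batch, and no test was made of this pattern.

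**Figure D4:**
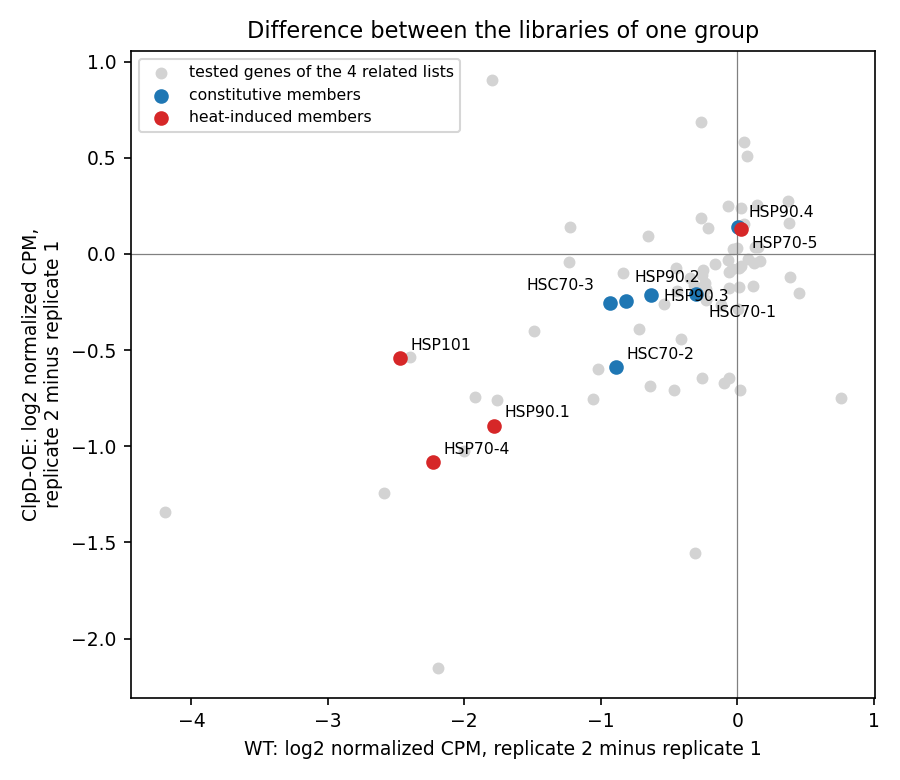
Log2 normalized CPM of replicate 2 minus replicate 1 in WT (x axis) and in ClpD-OE (y axis) for the constitutive genes (blue), the heat-induced genes (red) and the tested genes of the 4 related lists (grey). HSP101, HSP70-4 and HSP90.1 lie at -2.47, -2.23 and -1.78 in WT, and HSP90.4 and HSP70-5 near 0.

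The balance of heat-induced to constitutive transcripts was compared within each library, which needs no scaling between libraries. Summed FPKM of HSP70-4 and HSP70-5 was 9.28% and 2.91% of that of HSC70-1, HSC70-2 and HSC70-3 in WT, against 5.91% and 3.41% in ClpD-OE. HSP90.1 stood at 10.2% and 4.84% of the summed HSP90.2, HSP90.3 and HSP90.4 in WT, and at 9.22% and 5.72% in ClpD-OE. In both families the WT libraries enclosed the ClpD-OE libraries, with replicate 1 the higher in each group. The differences in mean log2 ratio were -0.21 for HSP70 and 0.047 for HSP90 (two-sided exact permutation p = 1 for each). Without WT replicate 1 they were 0.62 and 0.58, and without WT replicate 2 they were -1.05 and -0.49. The HSP70 value was -0.61 and 0.18, and the HSP90 value -0.30 and 0.39, without ClpD-OE replicate 1 and 2.

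HSP101 was 2.31% and 0.561% of the constitutive HSP70 transcripts in WT, against 0.488% and 0.393% in ClpD-OE. Here both ClpD-OE libraries were below both WT libraries, WT replicate 2 by a small margin. HSP101 itself stood at 2.87 FPKM in WT replicate 2, below the 4.19 and 2.92 of ClpD-OE. HSC70-1, the largest part of the denominator, was at 431 FPKM in WT replicate 2, against 705 and 617 in ClpD-OE. In normalized CPM, HSP101 stood at 9.93 in WT replicate 2, against 12.8 and 8.80 in ClpD-OE. HSC70-1 stood at 1171 there, against 1681 and 1453 in ClpD-OE. Which part of the ratio sets WT replicate 2 apart was not tested. The difference in mean log2 ratio was -1.38, with a two-sided exact permutation p of 0.333, the smallest that 2 against 2 libraries can give. The difference was -0.36 without WT replicate 1 and -2.40 without WT replicate 2.

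**Figure D5:**
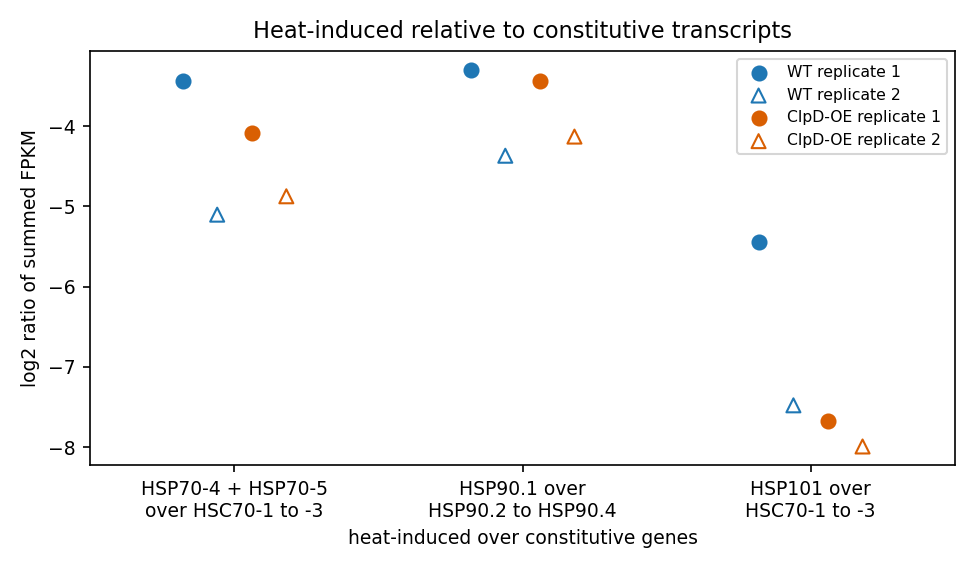
Log2 ratio of summed FPKM of heat-induced over constitutive genes in each library, for HSP70, HSP90 and HSP101; blue is WT, orange ClpD-OE, circles replicate 1 and open triangles replicate 2. The WT libraries enclose the ClpD-OE libraries for HSP70 and HSP90, and WT replicate 1 stands highest for HSP101 at -5.44.

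The genes with the profile most like that of HSP101 over the 4 libraries were found by the root mean square distance between log2 normalized CPM profiles, each centred on its own mean. Among 14262 genes with a mean of at least 5 CPM these were EXPA16 (an expansin, 0.0925), MBF1C (a heat-responsive transcriptional coactivator, 0.125), KCS2 (a ketoacyl-CoA synthase, 0.149), AT2G20560 (annotated as a DNAJ heat shock protein, 0.205) and SUS3 (a sucrose synthase, 0.231). MBF1C had 918 and 191 counts in WT, against 245 and 167 in ClpD-OE, so WT replicate 1 was again the high library. For HSP70-4 the nearest were HSP90.1 (0.191), ROF2 (an FKBP-type co-chaperone, 0.205), HOP3 (a cochaperone joining HSP70 and HSP90, 0.238), GolS1 (a galactinol synthase, 0.297) and AT1G64380 (annotated as an integrase-type DNA-binding protein, 0.389). ROF2 had 1133 and 367 counts in WT, against 1141 and 668 in ClpD-OE.

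For HSC70-1 the nearest profiles were those of Cpn60beta3 (a chaperonin subunit, 0.0104), AT1G47278 (0.0200), RRP41 (an exosome subunit, 0.0207), AT1G77600 (an ARM repeat protein, 0.0253) and AT4G34910 (a nucleoside triphosphate hydrolase, 0.0286). Its mild profile was common, with 4413 genes within a distance of 0.2, against 3 for HSP101 and 1 for HSP70-4. These distances describe 4 libraries and carry no test.

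Among the heat shock factors, the transcription factors that act on these genes, 2 of 19 tested were called higher and 1 lower in ClpD-OE. Over all tested genes 4.29% were called higher and 3.91% lower. Of the factors, 7 had an unadjusted edgeR p under 0.05 (against 28.2% of all tested genes). Both ClpD-OE libraries lay above both WT libraries in 4 factors (30.5% of all tested genes) and below them in 6 (29.4%). HSFA8 was 2.53-fold higher (11.6 ± 2.09 to 29.3 ± 3.90 normalized CPM, edgeR adjusted p = 0.0242), and HSFA3, a factor of the drought and heat response, 1.90-fold higher (8.66 ± 0.0192 to 16.4 ± 2.30, edgeR adjusted p = 0.0312). HSFB2A, of the class B factors held to repress, was 1.72-fold lower (37.0 ± 4.80 to 21.5 ± 1.97, edgeR adjusted p = 0.0364) (SD, n = 2 each). HSFA3 and HSFB2A were not called without WT replicate 1 (log2 fold changes 0.92 and -0.65). The count called lower was 2 with DESeq2, 4 with the replicate block, 0 without WT replicate 1 and 6 without WT replicate 2, and that called higher was 1 without WT replicate 1. HSFC1, a class C factor gene named after its values were seen, had 71.5 and 35.2 normalized CPM in WT, against 21.1 and 13.9 in ClpD-OE, and was called lower by DESeq2 (adjusted p = 0.00014) but not by edgeR (adjusted p = 0.0671). The median of the list was 0.055 on the log2 scale, 0.12 without WT replicate 2, and -0.082 and -0.013 without ClpD-OE replicate 1 and 2. HSFA7B was listed at 0 in all 4 libraries. The WT libraries differed by at least 1 on the log2 scale in 5 of the 19 factors, against 4.59% of all genes. HSFA2, also named after its values were seen, had 870 and 52 counts in WT, against 182 and 71 in ClpD-OE. Its log2 fold change of -2.25 did not pass the test (edgeR adjusted p = 0.300).

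Co-chaperones deliver clients to HSP70 and HSP90 or regulate their ATPase cycles, and the list also holds other genes such as MBF1C. Of its 24 tested genes, 0 were called by edgeR or by DESeq2. Over all tested genes edgeR called 4.29% higher and 3.91% lower. In the list 3 had an unadjusted edgeR p under 0.05 (against 28.2% of all tested genes). With library totals 4 were called higher, and with the replicate block or without WT replicate 2, 1 was called higher and 2 lower. The smallest p belonged to P23-1, an HSP90 co-chaperone gene, with 104 and 117 normalized CPM in WT, against 143 and 140 in ClpD-OE (a log2 difference of 0.36, edgeR adjusted p = 0.0782). The list had a median log2 fold change of -0.053, which was 0.17 with library totals, 0.13 without WT replicate 1, -0.13 without WT replicate 2 and 0.012 without ClpD-OE replicate 2. In WT, replicate 2 was below replicate 1 in 17 of the 24 genes (median log2 difference -0.25) and in 8 of the 10 chaperone genes. The same held for 9504 of the 18879 genes with counts in all 4 libraries.

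Cytosolic small heat shock proteins hold unfolding proteins for later refolding by HSP70 and HSP101. Against 4.29% and 3.91% of all tested genes, 1 of their 8 genes was called higher and 0 lower. This was HSP17.6C-CI, at 0.371 and 0.630 normalized CPM in WT, against 4.96 and 2.95 in ClpD-OE (a log2 difference of 2.96, SE 0.429, edgeR adjusted p = 0.0275). Its counts were low, at 7 and 13 in WT, against 124 and 73 in ClpD-OE. Without WT replicate 1 its log2 fold change was 2.64 and it was not called. DESeq2 called 3 higher and 0 lower, and 4 genes had an unadjusted edgeR p under 0.05 (against 28.2% of all tested genes). With the replicate block 4 were called higher and 1 lower, with library totals 3 higher, and without WT replicate 2, 1 higher and 2 lower. The median log2 fold change of the list was 0.70, and 0.33 and 1.00 without ClpD-OE replicate 1 and 2. The list was split in direction, with 5 of the 8 values above 0, against 9495 of all 18940 tested genes. Its lowest value was -1.49.

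Of 16 tested genes for HSP70, HSP90 and HSP100 outside the 10, most of them for proteins of organelles, 4 were called higher and 0 lower. Over all tested genes 4.29% were called higher and 3.91% lower. The difference from the 10 cytosolic genes was not tested. The count called higher was 10 with library totals, 7 with the replicate block and 2 with either WT library left out, and 1 was called lower with DESeq2, with the replicate block and without WT replicate 2. The median log2 fold change was 0.24, and 0.47 with library totals, 0.089 without WT replicate 2 and 0.18 without ClpD-OE replicate 2. MTHSC70-1, a mitochondrial HSP70 gene, rose from 79.0 and 79.9 normalized CPM in WT to 152 and 135 in ClpD-OE (1.80-fold, edgeR adjusted p = 0.0193). HSP90.5, the chloroplast HSP90 gene, rose from 228 and 247 to 446 and 398 (1.78-fold, edgeR adjusted p = 0.0218), and HSP90.6, the mitochondrial one, from 66.8 and 64.0 to 96.3 and 85.1 (1.39-fold, edgeR adjusted p = 0.0482). MTHSC70-2, named here after its values were seen, was 1.49-fold higher (edgeR adjusted p = 0.0490). CLPB3, the plastid relative of HSP101, also named after its values were seen, went the other way, with 147 and 108 normalized CPM in WT, against 79.2 and 69.3 in ClpD-OE. Its log2 fold change of -0.78 was not called by edgeR (adjusted p = 0.0547) and was called by DESeq2 (adjusted p = 0.0023). In the 4 genes called higher, both ClpD-OE libraries lay above both WT libraries, a trait that the call itself favours. Between the WT libraries MTHSC70-1 differed 0.989-fold. Among the 10 genes HSP90.4 differed 0.994-fold, HSP70-5 0.981-fold and HSP70-4 4.69-fold. HSP90.6 and MTHSC70-2 were not called with DESeq2 size factors, without a filter on low counts or without either WT library. With either ClpD-OE library left out, 0 genes of the whole table were called, these included.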

How the data were processed

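RNA was measured in 4 libraries of whole seedlings. The authors deposited 1 table of the series with estimated counts per gene (whole numbers, not normalized, taken to be RSEM's expected counts because the notes name that tool), FPKM values, and a log2 fold change with a p-value and its adjusted value, per the file headers. The submitters' processing notes name build TAIR10 and the tools DESeq2, RSEM, StringTie 1.3.1, HISAT2, Bowtie2 2.2.8 and fastp 0.18.0, without a role or order. In the authors' deposited table the adjusted p of the 10 genes was at least 0.460.

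Counts were rounded, which changed none, and tested with edgeR 4.0.16 in R 4.3.3 (TMM, filterByExpr by group, glmQLFit and glmQLFTest, genotype as the only term), with Benjamini-Hochberg adjustment over all tested genes and calls at an adjusted p under 0.05. The SE is the size of the log2 fold change divided by the square root of F. TMM factors were 0.907 and 0.943 for the WT and 1.07 and 1.09 for the ClpD-OE libraries, with a common biological coefficient of variation of 0.140. The libraries of each group differed by more than sampling noise, at a chi-square per degree of freedom of 19.4 in WT and 10.6 in ClpD-OE. Ratios used the authors' FPKM and an exact permutation test over libraries. Profile distances used a pseudocount of 0.1 CPM. Sequences and gene models are those of RefSeq TAIR10.1, which may differ from the authors' build, and coding sequences were aligned with Biopython 1.88.

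The text names the 10 genes, CLPD, up to 3 called genes with the smallest p from each related list (the gene with the smallest p where none was called) and the 5 nearest profiles of HSP101, HSP70-4 and HSC70-1. The genes and lists were chosen with earlier results of these data known. Alternatives were DESeq2 1.42.0, its size factors, library totals, other filters on low counts, a block for the replicate number, the newer quasi-likelihood fit, and each library left out.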

Additional observations from a re-analysis of the deposited data

How the results depend on the processing

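Counts of calls depended on the processing. Genes called higher numbered 812, but 2699 with library totals, 1628 with the replicate block and 0 to 1179 with 1 library left out. Genes called lower numbered 740, but 1195 with DESeq2, 1885 with the replicate block and 0 to 1602 with 1 library left out. Of the 10 chaperone genes, 2 were called higher with library totals (HSC70-1 and HSP90.4) and 1 with the replicate block (HSC70-2), and 0 to 1 lower with 1 library left out (HSP101). The labels share replicate numbers without stating a pairing. Over the 18940 tested genes, the log2 difference between replicates 1 and 2 in WT correlated at 0.293 with that in ClpD-OE. Whether same-numbered libraries share a day or batch was not tested, and the main fit holds no term for the number. HSP70-4 took the opposite sign with the replicate block (0.023), and HSP70-5 with library totals (0.22), no filter (0.00076) or a minimum of 1 CPM (0.00090). With each library left out in turn, log2 fold changes ran from 0.12 to 0.42 for HSC70-1, 0.026 to 0.91 for HSC70-2, 0.24 to 0.38 for HSP90.4, -0.37 to 0.56 for HSC70-3, -0.97 to 1.26 for HSP70-4, -0.067 to 0.062 for HSP70-5, -0.61 to 1.17 for HSP90.1, -0.29 to 0.53 for HSP90.2, -0.13 to 0.50 for HSP90.3 and -2.35 to 0.12 for HSP101. HSC70-1, HSC70-2 and HSP90.4 kept a positive sign under every alternative run, though HSC70-2 came near 0, and the causes of these shifts were not tested. Within the replicate block, the log2 ratio of heat-induced to constitutive HSP70 differed by -0.65 for number 1 and 0.23 for number 2. With 2 libraries per group, a fit without 1 library rests on a lone sample assumed to vary like the other group, and the SE of 0.736 for HSP70-4 limits what could be detected. PCR duplicates are not told apart, so counts overstate the number of independent molecules.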
